A study of Mus musculus with 6 samples.

Results

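The genes described are 9 that mark striatal projection neurons, listed by symbol: Drd1, Adora2a, Gpr6, Ppp1r1b, Rgs9, Pde10a, Rasgrp2, Bcl11b and Foxp1. Each was read from the probe set annotated to it, the brightest over all arrays where there were several. Of the 9 genes, 7 had a probe set of their own, 1 each, among 22180 genes so represented. Ppp1r1b was annotated only to a probe set that it shares with 1700003D09Rik (probe set 17255949), whose values are given for that probe set and are not counted for either gene. Adora2a was not analysed here.

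Striatal projection neurons are the GABA-releasing output cells of the striatum and the main target of midbrain dopamine neurons. Those of the direct pathway carry the D1 dopamine receptor and send axons into the substantia nigra, within the ventral midbrain, while those of the indirect pathway carry the adenosine receptor encoded by Adora2a and end in the globus pallidus. Their cell bodies lie outside the midbrain, so RNA of their genes in a midbrain dissection can come from adjoining tissue, from axons or from midbrain cells that use the same genes, and bulk RNA does not tell these sources apart. Bulk RNA also does not tell fewer cells of a type from less RNA per cell.

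Male mice 2 months of age gave ventral midbrain tissue, and total RNA was hybridised to 6 Affymetrix arrays, 3 labelled Bach1 KO and 3 labelled WT. BACH1 is a heme-binding transcriptional repressor of antioxidant and heme-degrading genes. The sources used here do not state the strain, the structure of the allele or whether each array was a separate animal, and p-values then reflect variation among these 6 arrays, which may be technical. The comparison asks which striatal transcripts in this dissection differ with the Bach1 genotype.

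Levels are log2 values after RMA, so a difference of 1 is a doubling, and each log2 fold change subtracts the wild-type mean from the knockout-labelled mean. Array medians lay between 5.58 and 5.69, and the Pearson r of array pairs, taken over probe sets that are no independent replicates, between 0.984 and 0.989. Bach1 itself was not lower on the knockout-labelled arrays, at 7.66 ± 0.058 against 7.54 ± 0.068 on the wild-type arrays (SD, n = 3 each; limma, adjusted p = 0.74), and a probe set outside a deleted part checks nothing. Hmox1, a gene that BACH1 represses, was higher there, with a log2 fold change of 1.95 (limma, adjusted p = 0.0181), and between 1.88 and 2.03 with any 1 array left out, where limma called 0 of all probe sets (adjusted p for Hmox1 between 0.134 and 0.233). Directions below follow the labels. Wild-type replicate 1 stood apart from the other wild-type arrays in several members, as described with each.

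None of the 7 members passed the test between knockout-labelled and wild-type arrays. At an adjusted p under 0.05 limma called 0 of 7 members, against 0.00726% of all 41345 probe sets, and 0 of 7 reached an unadjusted p under 0.05, against 8.27% of all. The values of the 2 groups overlapped for all 7 members, whereas they did not overlap for 14.3% of all probe sets. Log2 fold changes ran from -0.13 for Drd1 to 0.16 for Bcl11b, with 2 members higher and 5 lower and a median of -0.027, beside a median of -0.0098 over all genes. Adjusted p-values lay between 0.844 and 0.979. The largest fold change was smaller than the spread between replicates, and every 95% interval spanned 0, so differences inside these intervals were not detectable with 3 arrays a group.

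**Figure D1:**
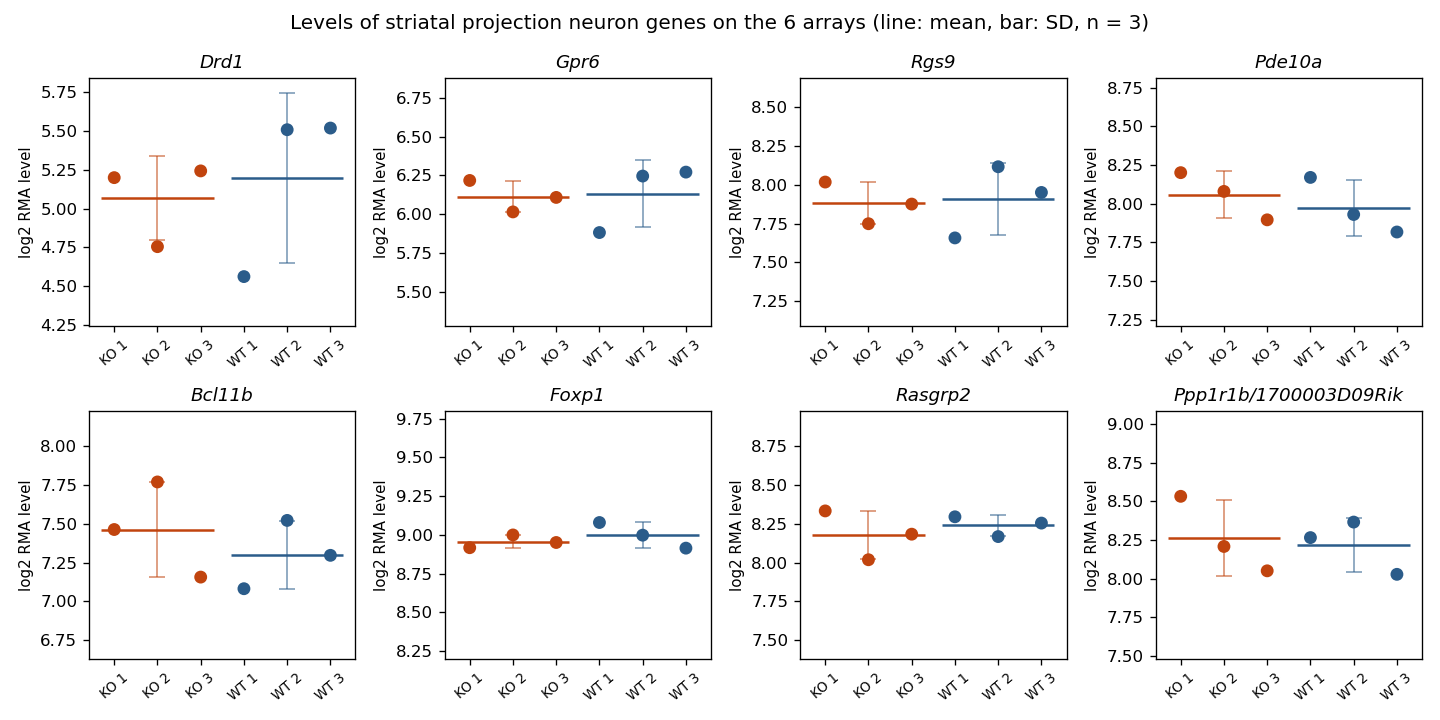
Level of each striatal projection neuron gene (log2 RMA units, each panel spanning the same range) on each array, with knockout-labelled arrays in red at the left and wild-type arrays in blue at the right; horizontal lines are group means and bars the SD (n = 3). The groups overlap in every panel, and wild-type replicate 1 has the lowest Drd1, Gpr6, Rgs9 and Bcl11b of the 6 arrays.

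Of the receptors, Drd1 (probe set 17292677) encodes the D1 dopamine receptor, which raises cAMP in direct pathway neurons. Its level was 5.20, 4.75 and 5.24 on knockout-labelled replicates 1, 2 and 3, against 4.56, 5.51 and 5.52 on wild-type replicates 1, 2 and 3. The wild-type group thus held both the highest values and the lowest, and the knockout-labelled values lay between them. Drd1 had a log2 fold change of -0.13 with an SE of 0.29 and a 95% interval of -0.84 to 0.58 (adjusted p = 0.928, limma). Drd1 was a dim probe set, at percentile 41.2 of all probe set means, and yet its SD over the 6 arrays, 0.39, exceeded that of 96.8% of genes.

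Gpr6 (probe set 17240401) encodes a constitutively active receptor coupled to cAMP production and enriched in indirect pathway neurons. It read 6.22, 6.01 and 6.11 on the knockout-labelled arrays and 5.88, 6.25 and 6.27 on the wild-type arrays. The order of arrays was nearly that of Drd1, with wild-type replicate 1 lowest, knockout-labelled replicate 2 next and wild-type replicates 2 and 3 highest, over a range of 0.39. Gpr6 had a log2 fold change of -0.020 with an SE of 0.13 and a 95% interval of -0.34 to 0.30 (adjusted p = 0.979, limma).

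Among signalling proteins, Rgs9 (probe set 17271209) encodes a regulator of G protein signalling whose brain form is concentrated in striatum. Its level was 8.02, 7.75 and 7.88 on the knockout-labelled arrays, against 7.66, 8.12 and 7.95 on the wild-type arrays. Again wild-type replicate 1 was lowest and knockout-labelled replicate 2 next, and the groups overlapped. The log2 fold change was -0.027 with an SE of 0.14, and its 95% interval was -0.37 to 0.32.

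The window of 250 bases before the annotated start of these 3 genes is printed because their levels ran together over the arrays. The sequences are from RefSeq (GRCm38.p6), each on the gene's own minus strand and 5′ to 3′. They lie at chr13:54055659-54055908 for Drd1, the more upstream of 2 annotated starts, at chr10:41072291-41072540 for Gpr6, and at chr11:109298182-109298431 for Rgs9. Capitals mark a cAMP response element.
Drd1: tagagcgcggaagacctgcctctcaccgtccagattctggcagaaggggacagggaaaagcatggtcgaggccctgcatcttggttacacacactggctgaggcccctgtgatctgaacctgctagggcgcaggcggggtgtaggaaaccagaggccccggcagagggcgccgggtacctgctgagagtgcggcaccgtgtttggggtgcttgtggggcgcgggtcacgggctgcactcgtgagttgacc
Gpr6: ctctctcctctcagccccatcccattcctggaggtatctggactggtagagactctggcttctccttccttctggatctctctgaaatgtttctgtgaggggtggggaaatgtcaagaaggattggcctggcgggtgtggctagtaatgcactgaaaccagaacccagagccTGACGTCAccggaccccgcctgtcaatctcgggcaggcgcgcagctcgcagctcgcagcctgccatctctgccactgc
Rgs9: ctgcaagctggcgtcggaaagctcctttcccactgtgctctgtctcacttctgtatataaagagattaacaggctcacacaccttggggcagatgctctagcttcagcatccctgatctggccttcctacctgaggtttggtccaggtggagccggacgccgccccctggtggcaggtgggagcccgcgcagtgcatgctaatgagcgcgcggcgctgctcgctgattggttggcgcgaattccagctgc

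The windows differed in the motifs searched. The palindromic cAMP response element TGACGTCA was in the Gpr6 window, starting 78 bases before the annotated start, and in 1 of 12 windows of the 7 members that had an entry, against 1.55% of 32851 windows in the table. The Maf recognition element TGACNNNGC, which BACH1 and NRF2 bind with small Maf proteins, was in 0 of the 12 windows and in 10.2% of all. The AP-1 site TGAGTCA was in 0 of the 12 and in 4.46% of all. Each motif was searched on both strands, and the letters of the Maf element and of the AP-1 site can overlap. A match is a description of these letters and not a binding site.

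Pde10a (probe set 17333133) encodes a phosphodiesterase that degrades cAMP and cGMP and is abundant in both classes of projection neuron. It read 8.20, 8.08 and 7.90 on the knockout-labelled arrays and 8.17, 7.93 and 7.82 on the wild-type arrays. Unlike in the genes above, wild-type replicate 1 had the second highest value and wild-type replicate 3 the lowest. The log2 fold change was 0.086 with an SE of 0.13, and its 95% interval was -0.23 to 0.40.

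Rasgrp2 (probe set 17356897) encodes a calcium- and diacylglycerol-regulated exchange factor for Rap1, found in striatum and also in platelets. Its values were 8.33, 8.02 and 8.18 on the knockout-labelled arrays, against 8.30, 8.17 and 8.26 on the wild-type arrays. Both the highest and the lowest value were on knockout-labelled arrays, replicates 1 and 2. The log2 fold change was -0.061 with an SE of 0.11, and its 95% interval was -0.32 to 0.20. Scores of 6 platelet markers, among them Gp9 and Ppbp, were also highest on knockout-labelled replicate 1, at 0.16, and lowest on replicate 2, at -0.14, against -0.12 to 0.026 on the wild-type arrays; a score is the mean over a list of the level minus its mean over all arrays. These markers had mean levels of 5.99 to 6.29 in knockout-labelled samples, against 6.02 to 6.16 in wild-type samples, and 3 of 6 were higher. Limma called 0, and 1 of 6, a higher one, reached an unadjusted p under 0.05, against 8.27% of all probe sets. The groups did not overlap for 2 of 6, both higher, against 14.3% of all. The part of these markers in the Rasgrp2 values was not tested.

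The probe set shared by Ppp1r1b and 1700003D09Rik read 8.53, 8.21 and 8.05 on the knockout-labelled arrays and 8.27, 8.37 and 8.03 on the wild-type arrays. Ppp1r1b encodes DARPP-32, which inhibits protein phosphatase 1 once protein kinase A has phosphorylated it. The groups overlapped, and the log2 fold change was 0.044 with an SE of 0.16, and its 95% interval was -0.33 to 0.42. How much of the signal belongs to either gene is not known.

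The transcription factors varied least and second most of the 7. Foxp1 (probe set 17469414), a forkhead factor also used by cortical and other neurons, had values of 8.917, 8.999 and 8.951 on the knockout-labelled arrays and 9.080, 8.998 and 8.914 on the wild-type arrays. The whole range was 0.165, and 10.9% of genes had a smaller SD over the arrays. Its log2 fold change was -0.042 with an SE of 0.082, and its 95% interval was -0.24 to 0.16.

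Bcl11b (probe set 17283871) encodes CTIP2, which projection neurons need to mature and which deep-layer cortical and hippocampal neurons also express. It read 7.46, 7.77 and 7.16 on the knockout-labelled arrays, against 7.08, 7.52 and 7.30 on the wild-type arrays. Knockout-labelled replicate 2 was highest, wild-type replicate 1 lowest, and the log2 fold change was 0.16 with an SE of 0.19 and a 95% interval of -0.30 to 0.62 (adjusted p = 0.844, limma). Cortex and hippocampus markers, a list of 13 measured genes led in brightness by Camk2a and Nrgn, had their highest score on the same array. Their scores were -0.24, 0.48 and -0.16 on the knockout-labelled and -0.28, 0.19 and 0.017 on the wild-type arrays, so the highest and lowest arrays are those of Bcl11b. Of the 2 brightest, Nrgn had its extremes on the same arrays, at 10.76 and 9.13. Camk2a was highest on knockout-labelled replicate 2, at 11.86, but lowest on knockout-labelled replicate 3, at 11.18, with 11.42 on wild-type replicate 1. Mean levels of this list lay between 7.42 and 8.14 in knockout-labelled samples, against 7.38 to 7.85 in wild-type samples, 9 of 13 were higher and 0 were called, and their part in the Bcl11b values was not tested. Without wild-type replicate 1 the direction turned, to 5 of 13 higher, and the list median of log2 fold changes was -0.066, against 0.027 with all arrays. The Bcl11b log2 fold change was then 0.054.

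**Figure D2:**
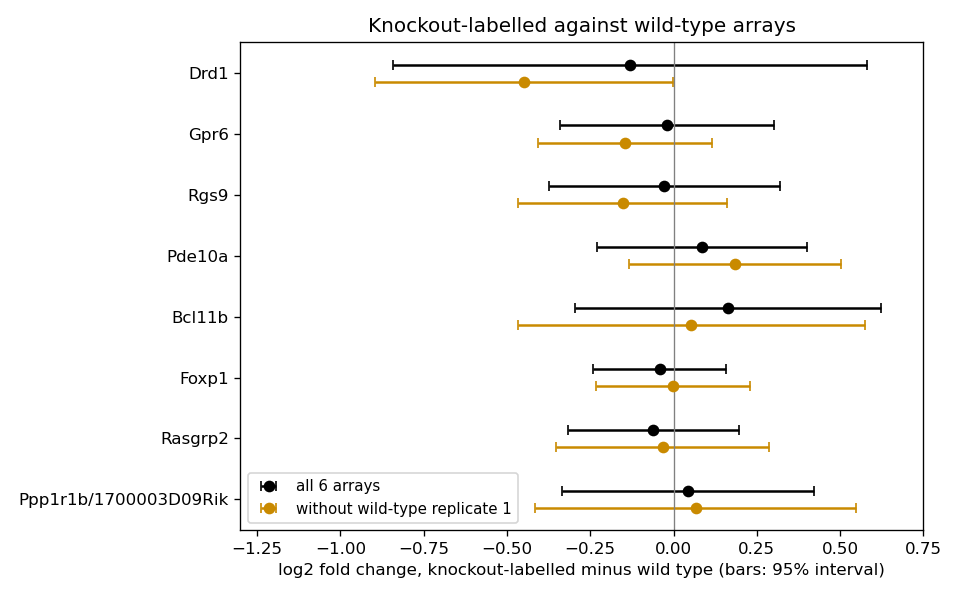
Log2 fold change of each gene, knockout-labelled minus wild type, with its 95% interval from limma, over all 6 arrays in black and without wild-type replicate 1 in yellow. Over all arrays every interval spans 0; without that array Drd1 moves to -0.45, with an interval that ends just below 0 and an adjusted p of 0.569.

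The size and sign of the Drd1 value depended on which arrays were used. Without wild-type replicate 1 its log2 fold change was -0.45 (95% interval -0.90 to -0.0021; limma, unadjusted p = 0.0493, adjusted p = 0.569), and with all arrays it was -0.13. Without that array the groups did not overlap for Drd1 and Gpr6, 2 of 7 members, against 26.8% of all probe sets. At an unadjusted p under 0.05 there was then 1 of 7, against 8.75% of all probe sets, and limma called 0 of 7 members and 0% of all probe sets at an adjusted p under 0.05. These counts lie near the shares over all probe sets and are no result about the members. Without knockout-labelled replicate 2, wild-type replicate 2 or wild-type replicate 3 the sign of the Drd1 and Gpr6 values turned, to between 0.025 and 0.031 for Drd1 and between 0.030 and 0.050 for Gpr6. Without wild-type replicate 1 the log2 fold change was -0.15 for Rgs9 and 0.18 for Pde10a (limma, adjusted p = 0.762 and 0.718).

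Drd1 and Gpr6, taken as marks of the direct and the indirect pathway, did not separate by genotype. The per-array difference of their log2 levels, Drd1 minus Gpr6, was -1.02, -1.26 and -0.86 on the knockout-labelled arrays and -1.32, -0.74 and -0.75 on the wild-type arrays. Its mean was 0.11 lower on the knockout-labelled arrays (exact two-sided permutation test, p = 0.6, n = 3 each), in a design whose smallest p is 0.1. Gpr6 was chosen for this after its values were seen, in place of Adora2a.

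Over the 6 arrays the members did not vary as 1 block. Of the 21 pairs, 12 had a positive and 9 a negative Pearson r, with a median of 0.13 and a range from -0.82 to 0.96. Drd1, Gpr6 and Rgs9 formed the most tightly related trio. For Drd1 with Gpr6, r was 0.96 (exact permutation p = 0.00417, adjusted p = 0.0729 over 21 pairs) and Spearman's rho 0.94 (exact permutation p = 0.0167, adjusted p = 0.35). Gpr6 with Rgs9 had an r of 0.93 (exact permutation p = 0.00694, adjusted p = 0.0729) and a rho of 0.83 (exact permutation p = 0.0583, adjusted p = 0.408). Drd1 with Rgs9 had an r of 0.90 (exact permutation p = 0.0222, adjusted p = 0.156) and a rho of 0.71 (exact permutation p = 0.136, adjusted p = 0.476).

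No pair passed the adjustment. Without knockout-labelled replicate 2 and wild-type replicate 1, the 2 arrays farthest from the Drd1 and Gpr6 medians, r was 0.70 for Drd1 with Gpr6, 0.63 for Gpr6 with Rgs9 and 0.41 for Drd1 with Rgs9, over 4 arrays each. Without wild-type replicate 1 alone, r was 0.91, 0.86 and 0.80 for the same pairs. The relation of Drd1 with Rgs9 therefore rests largely on the outer arrays, while the positive sign of all 3 pairs held in both reductions. With deviations from group means in place of levels, r was 0.96, 0.93 and 0.90, so the relations lie within the groups.

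Foxp1 and Pde10a ran the other way. Gpr6 with Foxp1 had the lowest r of the 21 pairs, -0.82 (exact permutation p = 0.0347, adjusted p = 0.182), with a rho of -0.83 (exact permutation p = 0.0583, adjusted p = 0.408). It was -0.092 without the same outer 2 arrays, so the negative relation rests on them. Drd1 with Pde10a had an r of -0.72 (exact permutation p = 0.124, adjusted p = 0.433) and a rho of -0.77 (exact permutation p = 0.103, adjusted p = 0.432), and an r of -0.69 without the 2 outer arrays. Without those 2 arrays r went from -0.54 to -0.041 for Gpr6 with Pde10a and from -0.73 to 0.34 for Drd1 with Foxp1. For Rgs9 the 2 farthest arrays were wild-type replicates 1 and 2. Without them its r went from -0.38 to 0.081 with Pde10a and from -0.62 to -0.96 with Foxp1. Bcl11b was nearly unrelated to Drd1, with an r of 0.050 (exact permutation p = 0.919, adjusted p = 0.919) and a rho of 0.14 (exact permutation p = 0.803, adjusted p = 0.992). Within-batch values could not be computed, since neither labels nor values name a batch.

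**Figure D3:**
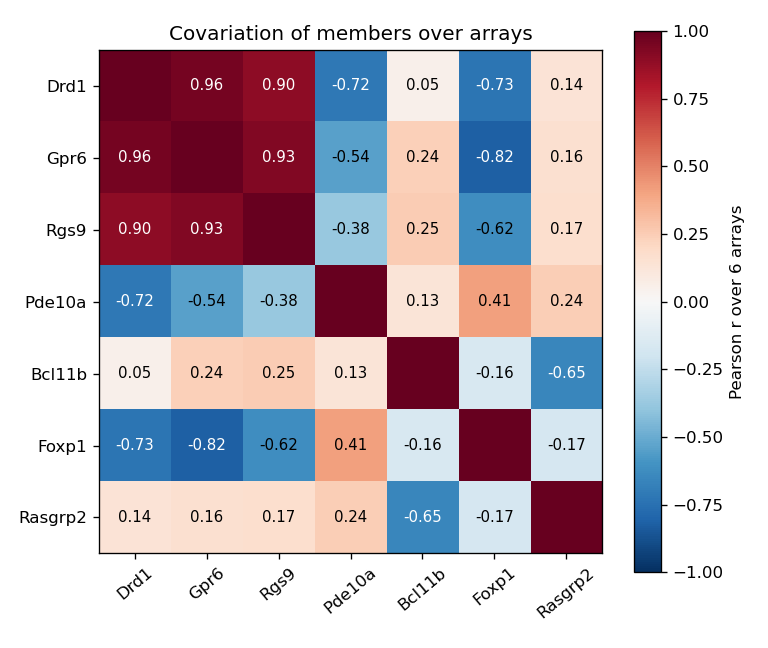
Pearson r of log2 levels over the 6 arrays for each pair of the 7 genes with a probe set of their own, from -1 in blue to 1 in red. Drd1, Gpr6 and Rgs9 have r between 0.90 and 0.96 with each other, whereas Foxp1 has r between -0.82 and -0.62 with these 3.

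Of 29 further striatal projection neuron genes measured, 12 lay higher and 17 lower in the knockout-labelled group. Limma called 0 in either direction, against 0.00726% of all probe sets, and 1 of 29, Rarb, reached an unadjusted p under 0.05, a smaller share than the 8.27% of all probe sets. Their median log2 fold change was -0.042, beside -0.0098 over all genes. Rarb, a retinoic acid receptor of the developing striatum, read 6.79, 6.65 and 6.37 on the knockout-labelled arrays, against 7.04, 7.01 and 6.93 on the wild-type arrays (log2 fold change -0.39, 95% interval -0.69 to -0.089; limma, adjusted p = 0.543). The groups did not overlap for 2 of 29, again a smaller share than the 14.3% of all probe sets; these were Rarb and Isl1, a homeodomain factor of direct pathway neurons singled out after its values were seen (log2 fold change -0.58; limma, adjusted p = 0.625).

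The peptide precursors of the direct pathway were highest on the same 2 arrays as Drd1. Tac1, which encodes the substance P precursor, read 7.67, 7.49 and 7.39 on the knockout-labelled arrays and 7.47, 8.51 and 8.56 on the wild-type arrays. Pdyn, the dynorphin precursor gene, read 6.44, 6.13 and 6.26 on the knockout-labelled and 6.30, 6.70 and 7.02 on the wild-type arrays. Wild-type replicates 2 and 3 stood above all other arrays in both genes, and wild-type replicate 1 lay among the knockout-labelled arrays. Log2 fold changes were -0.66 for Tac1 (95% interval -1.39 to 0.072; limma, adjusted p = 0.623) and -0.40 for Pdyn (95% interval -0.87 to 0.077; adjusted p = 0.639). Without wild-type replicate 1 they were -1.01 and -0.59 (limma, adjusted p = 0.494 for both).

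Penk, the enkephalin precursor gene of the indirect pathway and of many other neurons, read 10.11, 9.75 and 9.81 on the knockout-labelled arrays, against 9.60, 10.05 and 10.21 on the wild-type arrays. Its lowest value was again on wild-type replicate 1 and its highest on wild-type replicate 3, with knockout-labelled replicate 1 between wild-type replicates 2 and 3. The log2 fold change was -0.061 (limma, adjusted p = 0.948), and -0.24 without wild-type replicate 1. Drd2, the D2 receptor gene, which midbrain dopamine neurons themselves express, read 10.19, 9.89 and 10.45 on the knockout-labelled and 10.14, 10.19 and 10.07 on the wild-type arrays. It did not share the low value of wild-type replicate 1, and its log2 fold change was 0.044 (limma, adjusted p = 0.955).

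Other genes typical of the projection neuron had small log2 fold changes. The log2 fold change was -0.12 for Adcy5, the main striatal adenylyl cyclase, and -0.12 for Gnal, the G protein subunit that couples the D1 receptor to it. It was -0.11 for Ptpn5, the striatum-enriched tyrosine phosphatase STEP, and -0.18 for Six3, a factor of indirect pathway neurons (limma, adjusted p between 0.705 and 0.816 for these 4).

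The relation of Drd1 to each of the 29 genes was computed after the values were seen. Positive r was found for 16 and negative r for 13, with a median of 0.038, so Drd1 was not followed by striatal genes in general. The highest r was with Penk, at 0.88 (exact permutation p = 0.0181, adjusted p = 0.397 over 29) and a rho of 0.83 (exact permutation p = 0.0583, adjusted p = 0.564), and it was 0.52 without the 2 arrays farthest from the Drd1 median. Pdyn and Tac1 had r of 0.77 and 0.77 (exact permutation p = 0.0833 and 0.0958, adjusted p = 0.397 for both) and rho of 0.71 and 0.66 (exact permutation p = 0.136 and 0.175, adjusted p = 0.634 for both). Without those 2 arrays their r was 0.87 and 0.96. Adcy5 and Gpr52, the latter singled out after its values were seen, had r of 0.79 and 0.77 (exact permutation p = 0.0875 and 0.0847, adjusted p = 0.397 for both). Their rho was 0.66 and 0.77 (exact permutation p = 0.175 and 0.103, adjusted p = 0.634 for both), and their r without the same arrays 0.67 and 0.50. Scn4b, a sodium channel subunit gene singled out after its values were seen, had the lowest r, -0.78 (exact permutation p = 0.0694, adjusted p = 0.397), a rho of -0.94 (exact permutation p = 0.0167, adjusted p = 0.483) and an r of -0.89 without the 2 arrays.

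**Figure D4:**
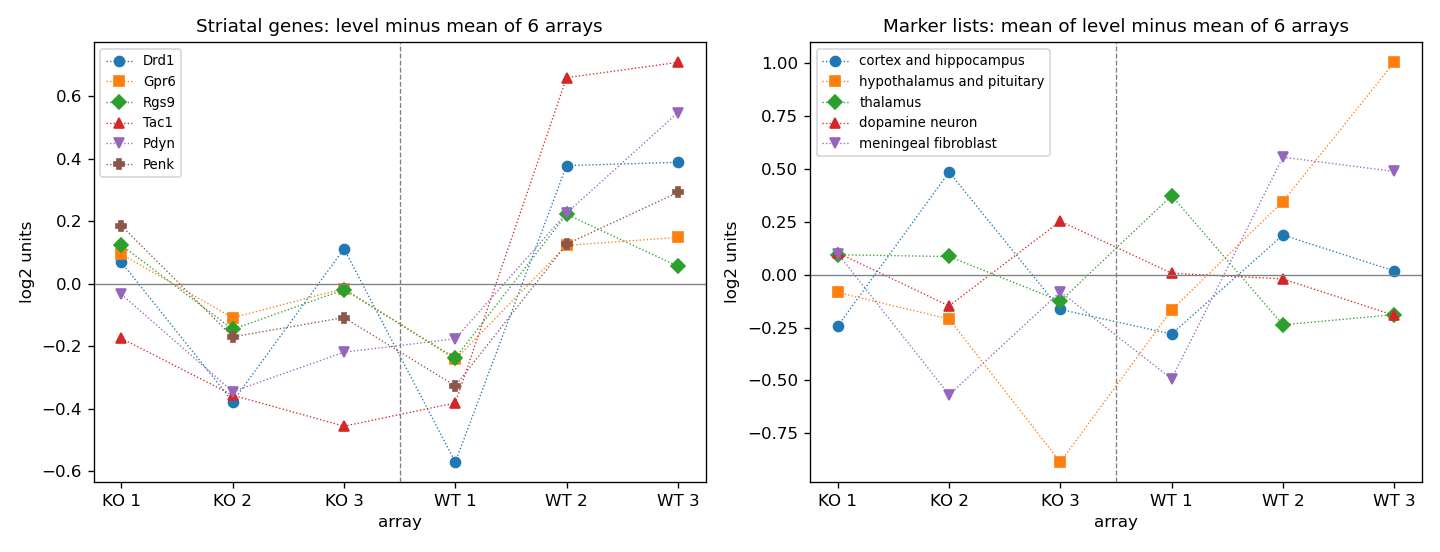
Left, level minus the mean of the 6 arrays for 6 striatal genes; right, the same averaged over each marker list; both in log2 units, with knockout-labelled arrays left of the dashed line and wild-type arrays right of it. Drd1, Gpr6, Rgs9 and Penk are lowest on wild-type replicate 1, where the thalamus score is highest (0.37), and Tac1 and Pdyn are highest on wild-type replicates 2 and 3, where the hypothalamus score is also highest (0.35 and 1.002).

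Of 28 measured genes of the cAMP and DARPP-32 cascade, 8 lay higher and 20 lower in the knockout-labelled group, and the median log2 fold change was -0.056. Limma called 0 of 28, against 0.00726% of all probe sets, and 0 reached an unadjusted p under 0.05, against 8.27% of all. The groups did not overlap for 5 of the 28, 1 higher and 4 lower, against 14.3% of all probe sets. The smallest unadjusted p-values belonged to the phosphodiesterase genes Pde4b, with a log2 fold change of -0.21 (limma, adjusted p = 0.606), and Pde4d, with 0.10 (adjusted p = 0.749), to Gnb5, the G protein subunit that partners RGS9, with -0.12 (adjusted p = 0.706), and to Prkaca, a catalytic subunit of protein kinase A, with -0.094 (adjusted p = 0.764). These 4 were among the 5, and the other was the casein kinase gene Csnk1e, singled out after its values were seen (log2 fold change -0.076).

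Markers of neighbouring regions differed between arrays in ways that partly ran with the striatal genes. Hypothalamus and pituitary markers, with Pmch and Hcrt the brightest, scored -0.084, -0.21 and -0.89 on the knockout-labelled arrays and -0.17, 0.35 and 1.002 on the wild-type arrays. All 13 measured genes averaged lower in the knockout-labelled group, the median log2 fold change was -0.65 (-0.92 without wild-type replicate 1), and limma called 0. An unadjusted p under 0.05 was reached by 3 of 13, against 8.27% of all probe sets. The groups did not overlap for 3 of 13, against 14.3% of all. Without wild-type replicate 1 these counts were 8 and 10 of 13, against 8.75% and 26.8% of all. Mean levels of this list lay between 6.04 and 6.84 in knockout-labelled samples, against 6.76 to 7.93 in wild-type samples, and the 2 highest scores were on the arrays with the highest Drd1, Tac1 and Pdyn. The lowest score was on knockout-labelled replicate 3, where Tac1 was lowest, at 7.39, but Drd1 highest of its group, at 5.24. Pmch and Hcrt were low on that array alone, at 7.65 and 6.97. They read 10.65 and 9.99 on knockout-labelled replicate 1 and 10.41 and 9.72 on wild-type replicate 1. Thalamus markers, with Prkcd and Calb2 the brightest, scored 0.094, 0.085 and -0.13 on the knockout-labelled and 0.37, -0.24 and -0.19 on the wild-type arrays, so wild-type replicate 1 was highest where Drd1, Gpr6 and Rgs9 were lowest. Of 12 measured, 6 were higher and 6 lower, and the list median was 0.0075 as log2 fold change. Of the 2 brightest, Prkcd was highest on wild-type replicate 1, at 11.84. Calb2 did not follow the score, at 10.57 on that array, against 10.81 and 10.92 on wild-type replicates 2 and 3. Without wild-type replicate 1, 11 of 12 were higher, with a median of 0.21, 3 of 12 reached an unadjusted p under 0.05, against 8.75% of all probe sets, and 4 of 12 did not overlap, against 26.8% of all. With all arrays, mean levels lay between 9.14 and 9.36 in knockout-labelled samples, against 9.03 to 9.64 in wild-type samples. No value of either list was 0, and the part of these markers in the striatal genes was not tested.

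Dopamine neuron markers, with Slc6a3 and Aldh1a1 the brightest, were higher in 15 of 17 genes, with scores of 0.10, -0.15 and 0.25 on the knockout-labelled and 0.0066, -0.020 and -0.19 on the wild-type arrays. Midbrain GABA neuron markers, with Gad2 and Slc32a1 the brightest, were higher in 8 of 9, with scores of 0.12, -0.11 and 0.25 on the knockout-labelled and 0.072, -0.15 and -0.18 on the wild-type arrays. Both lists had a lower score on wild-type replicates 2 and 3 than on wild-type replicate 1, the reverse of Drd1 on these arrays. On the knockout-labelled arrays both lists had the order of Drd1, with replicate 2 lowest and replicate 3 highest. Meningeal fibroblast markers, with Ptgds and Dcn the brightest, were lower in 8 of 9 (9 of 9 without wild-type replicate 1, the median log2 fold change being -0.52, against -0.30 with all arrays), and their scores were 0.10, -0.57 and -0.081 on the knockout-labelled and -0.49, 0.55 and 0.49 on the wild-type arrays. Their 2 lowest and 2 highest arrays are those of Drd1. With all arrays 0 of 9 reached an unadjusted p under 0.05 in limma, against 8.27% of all probe sets. For 0 of 9 the groups did not overlap, against 14.3% of all. Without wild-type replicate 1 these counts were 5 and 7 of 9, against 8.75% and 26.8% of all. Mean levels of this list lay between 7.51 and 8.18 in knockout-labelled samples, against 7.59 to 8.63 in wild-type samples, and its part in the Drd1 values was not tested.

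The remaining lists varied less. All 10 endothelial and mural markers were lower (9 of 10 without wild-type replicate 1), with scores between -0.18 and -0.0086 in knockout-labelled samples, against 0.043 to 0.14 in wild-type samples. The groups did not overlap for 2 of 10, against 14.3% of all probe sets, and for 5 of 10 without wild-type replicate 1, against 26.8%. Astrocyte markers, 4 of 8 of them higher, scored 0.018, -0.032 and 0.0065 on the knockout-labelled and -0.031, 0.052 and -0.014 on the wild-type arrays. Microglia markers, 6 of 8 of them higher, scored 0.068, -0.067 and 0.061 on the knockout-labelled and -0.054, -0.014 and 0.0049 on the wild-type arrays. The astrocyte and microglia lists were lowest on knockout-labelled replicate 2 and wild-type replicate 1, the 2 lowest arrays of Drd1, Gpr6 and Rgs9. Oligodendrocyte markers scored 0.095, -0.17 and 0.039 on the knockout-labelled and 0.11, -0.037 and -0.036 on the wild-type arrays. This list was also lowest on knockout-labelled replicate 2 but highest on wild-type replicate 1. The part of the glial lists in the values of those genes was not tested. Oligodendrocyte markers were higher in 3 of 9, and in 6 of 9 without wild-type replicate 1. Without that array microglia markers were higher in 4 of 8 and astrocyte markers in 5 of 8. Limma called 0 genes of any of these lists over all probe sets. Adjusted over all probe sets, the smallest p among the marker lists was 0.512 (limma), in the platelet list.

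Genes with the array profile most like the mean of the 7 members were sought among 4703 genes brighter on average than 40% of probe sets and with an SD of at least 0.157. The member profile, the mean level minus its mean over arrays, was 0.088, -0.049 and -0.045 on the knockout-labelled arrays and -0.14, 0.11 and 0.042 on the wild-type arrays. The highest Pearson r over the 6 arrays were 0.990 for Plin2, 0.989 for Mir3961, 0.983 for Vim, 0.977 for 9030624G23Rik and 0.967 for Sema3b. Pgm5 followed at 0.965, H2-Bl at 0.955, Mgl2 at 0.953, Lama1 at 0.949 and Clec7a at 0.946. None of these 10 is in the striatal lists, and r exceeded 0.9 for 34 of the 4703 genes, or 0.723%. The lowest r were -0.993 for Olfr1348, -0.987 for Vtcn1 and -0.974 for Lhx9. With 6 arrays and a profile that averages genes of unlike pattern, such likeness is a description of these arrays.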

How the data were processed

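The authors deposited 1 table of log2 expression values per probe set for 6 arrays, made with RMA, per the submitters' processing notes, a method that corrects background, normalizes arrays and combines probes. Software and versions are not given in the sources used here. That values are on a log2 scale was read from the deposited values (0.745 to 14.1). RMA makes array distributions alike and compresses differences of dim probe sets. No depth exists for arrays, so their number limits precision. Further columns of sample values numbered 0.

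Genes came from a platform annotation updated through Entrez identifiers (RefSeq, GRCm38.p6; 23328 probe sets matched). Of the probe sets, 23521 had 1 gene, 1814 had more than 1 and 16010 had no gene. All 41345 probe sets were fitted with limma 3.58.1 in R 4.3.3 (lmFit, eBayes, no covariates) and adjusted with Benjamini-Hochberg. Correlations used Python 3.11.15 and exact permutation over the 6 arrays. The fit was tested on simulated data. Replicate numbers were not taken as pairs, since deviations of same-numbered arrays correlated at 0.086, -0.033 and 0.040. The members and lists were chosen with earlier results of these data known. Values are named for all members, for index genes and for the smallest p-values of each striatal list; marker lists are named by their 2 brightest genes. Alternatives changed variance prior, scaling, dim-probe filter, replicate block and arrays used.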

Additional observations from a re-analysis of the deposited data

How the results depend on the processing

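The count of 0 called members held under all 12 alternatives, with 0 to 1 at an unadjusted p under 0.05, and the median log2 fold change stayed between -0.075 and 0.037. The replicate block gave a median of -0.027, 0 called members and 0 called probe sets in all against 3 without it, and the Drd1 and Gpr6 difference had an exact paired permutation p = 0.75 with n = 3 pairs. Leaving out 1 array at a time, log2 fold changes ran from -0.45 to 0.031 for Drd1, -0.15 to 0.050 for Gpr6, -0.15 to 0.077 for Rgs9, -0.14 to 0.019 for Rasgrp2, -0.090 to 0.15 for the probe set shared by Ppp1r1b, -0.24 to 0.069 for Penk and -0.094 to 0.19 for Drd2, changing sign in each. Pde10a and Bcl11b kept their sign in all 11 alternatives, at 0.0085 to 0.18 and 0.0098 to 0.32. Renewed quantile normalization turned Rgs9 to 0.012 and Foxp1 to 0.0034, and centring on array medians turned the shared probe set to -0.00314 and Drd2 to -0.003244. The cause was not tested. Members with a higher mean numbered 2, against 4 after renewed quantile normalization and 2 to 6 with 1 array left out. The median pairwise r ran from -0.091 to 0.12 with 1 array left out. Hmox1 stayed at 1.88 to 2.03 with 1 array left out and at 1.95 under the block, where limma called 0 of all probe sets, Hmox1 included. The planned Drd1 and Adora2a difference was not run, since Adora2a was not analysed, and the mean of several probe sets gave no other value, since each member has 1.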
